A study of Homo sapiens with 9 samples.

Results

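Messenger RNA of 8 genes of cholesterol synthesis and its control was followed in HaCaT cells, an immortalised line of human skin keratinocytes. The genes were chosen by name, with earlier results of these data known: HMGCS1, IDI1, FDFT1, SQLE, LSS and DHCR7, which encode enzymes of the pathway, and INSIG1 and SREBF2, which encode proteins that control it. They are 8 of the 58336 genes in the deposited tables, and all 8 passed the filter on low counts that left 13845 genes to be tested. The labels describe 3 groups of 3 samples each. Treated cells were given low-dose ALA-PDT, photodynamic therapy with aminolevulinic acid, from which cells make a light-sensitive porphyrin. The dose was 0.5 mmol/L of ALA with light of 635 ± 5 nm at 3 J/cm2, and cells were kept for 12 h in 1 treated group and for 48 h in the other. Control cells are labelled as untreated, and no sample with light or ALA alone was analysed here. All groups were grown in medium with fetal bovine serum. HaCaT is a line in culture and holds no other skin cell type by design.

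The tables name their 9 libraries A1 to A3, B1 to B3 and Nc1 to Nc3. Nc was read as control, and A and B as the treated stems. The names do not say which treated stem was kept for 12 h and which for 48 h, so the stems are called A and B and no order in time is given. The labels do not say whether the 3 libraries of a stem came from separate cultures, so p-values measure the spread between these libraries, which may be technical. The comparisons of A with Nc and of B with Nc use the same 3 control libraries.

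Cells make cholesterol from acetyl-CoA through the mevalonate pathway, which ends in farnesyl diphosphate, and then through squalene and lanosterol. SREBP2, the product of SREBF2, is a transcription factor held in the membrane of the endoplasmic reticulum. It binds SCAP, which carries it to the Golgi when sterols are low, where it is cut and its active part released to the nucleus. INSIG1 holds the SREBP and SCAP pair in the endoplasmic reticulum when sterols are high, and is itself a target of SREBP, as are the genes of the enzymes. In the epidermis, keratinocytes make much of the cholesterol that goes into the lipid layers of the skin barrier.

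The sequences before 4 of the genes are shown because SREBP2 acts on such regions together with the factor NF-Y, which binds CCAAT boxes. They run from 250 bases before to 50 bases after the RefSeq start of the gene in GRCh38.p14, 5′ to 3′ on the gene's strand. Capitals mark matches to CCAAT, on either strand, and to a sterol regulatory element spelled TCACNCCAC or, in a shorter form that lies within it, CACNCCAC.
SREBF2, chr22:41832855-41833154, + strand: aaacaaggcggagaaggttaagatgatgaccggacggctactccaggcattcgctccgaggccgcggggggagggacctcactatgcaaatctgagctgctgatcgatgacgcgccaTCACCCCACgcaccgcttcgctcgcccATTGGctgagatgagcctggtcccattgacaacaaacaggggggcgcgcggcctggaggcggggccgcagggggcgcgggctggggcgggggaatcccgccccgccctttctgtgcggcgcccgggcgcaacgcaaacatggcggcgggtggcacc
INSIG1, chr7:155297628-155297927, + strand: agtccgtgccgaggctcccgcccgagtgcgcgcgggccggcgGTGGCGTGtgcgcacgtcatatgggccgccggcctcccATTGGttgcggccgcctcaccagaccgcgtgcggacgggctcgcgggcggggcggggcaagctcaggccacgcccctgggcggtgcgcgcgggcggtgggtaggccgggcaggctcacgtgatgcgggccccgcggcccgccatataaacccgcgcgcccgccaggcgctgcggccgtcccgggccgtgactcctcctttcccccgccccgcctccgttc
HMGCS1, chr5:43313363-43313662, - strand: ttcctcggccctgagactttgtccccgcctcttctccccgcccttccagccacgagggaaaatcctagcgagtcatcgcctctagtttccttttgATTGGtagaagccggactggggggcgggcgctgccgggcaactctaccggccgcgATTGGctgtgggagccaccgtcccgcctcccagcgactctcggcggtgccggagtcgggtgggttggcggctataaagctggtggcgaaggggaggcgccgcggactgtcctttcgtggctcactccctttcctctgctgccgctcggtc
LSS, chr21:46228725-46229024, - strand: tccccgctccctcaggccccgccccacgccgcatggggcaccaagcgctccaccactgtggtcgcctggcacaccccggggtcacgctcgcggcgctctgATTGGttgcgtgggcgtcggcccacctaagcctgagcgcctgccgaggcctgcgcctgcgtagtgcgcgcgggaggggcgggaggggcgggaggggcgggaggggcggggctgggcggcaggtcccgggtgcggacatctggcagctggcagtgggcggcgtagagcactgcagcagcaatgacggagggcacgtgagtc

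SREBF2 held a match to the longer form of the sterol element, starting at base -133 from the start of the gene, and a CCAAT match on the other strand at -106. INSIG1 held a match to the shorter form alone on the other strand at -208, and a CCAAT match at -170. HMGCS1 held CCAAT matches at -155 and -100, and LSS held one at -150. Neither of these windows held the letters of the sterol element, which says only that these letters are not in the windows. IDI1, whose window is not printed, held CCAAT matches at -215 and -117. Of 35116 RefSeq windows of this kind, 1.13% held the longer form, 5.87% the shorter form and 34.6% a CCAAT match on either strand. A match is a description of the letters and was not tied to binding in these cells.

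Library totals lay between 15337296 and 18028419 counts. The 9 keratinocyte markers summed to 51243 to 61366 counts in A, 39328 to 42136 in B and 38145 to 50765 in Nc. The 5 epithelial markers summed to 83182 to 90422 counts in A, 70499 to 76464 in B and 83936 to 88466 in Nc, with all 5 detected in each stem. KRT5, a basal keratin, had 109, 113 and 106 FPKM in A, 73.0, 67.1 and 61.4 in B and 94.3, 89.0 and 101 in Nc, with no overlap between stems. KRT15, of the same list, went the other way and was highest in B. It had 19.2, 23.6 and 22.5 FPKM in A, 40.1, 34.5 and 39.4 in B and 15.9, 19.1 and 21.3 in Nc. TP63 had 17.7 to 20.8 FPKM in A, 17.5 to 18.2 in B and 19.5 to 26.3 in Nc. The part of these markers in the results was not tested. KRT14, the keratin that pairs with KRT5, was at 2 to 20 counts per library, unlike the other 8 keratinocyte markers, which had 10 counts or more in each library. The 6 red blood cell markers summed to 7 to 1245 counts in A, 4 to 8413 in B and 3 to 7479 in Nc. HBB, the beta chain of haemoglobin, made up most of these, with 519, 1115 and 7 counts in A, 4, 6 and 7550 in B and 6700, 6665 and 2 in Nc. The libraries A1, A2, B3, Nc1 and Nc2 thus stood apart in transcripts of blood, and the 8 genes were also tested without them. The 8 markers of fibroblasts summed to 27 to 195 counts in A, 38 to 65 in B and 48 to 70 in Nc, with at most 2 of 8 at 10 or more counts in each library of a stem. Among these, COL3A1, DCN and LUM had counts in A1 and A2 alone. The 6 markers of endothelial cells summed to 27 to 52 counts in A, 197 to 246 in B and 48 to 73 in Nc, most of them from CDH5. The 6 of melanocytes summed to 109 to 160, 124 to 151 and 143 to 208 in A, B and Nc, with TYR at 0 in all 9 libraries, and the 6 of immune cells to 51 to 72, 62 to 242 and 26 to 191. The part of other cells' RNA in the results was not tested.

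Of the 8 genes, 5 were called higher in A than in B, against 9.25% of all genes tested. They were HMGCS1, SQLE, LSS, DHCR7 and INSIG1, by 1.32 to 1.71 times. None was called lower, against 8.79% of all genes. Against the control libraries, INSIG1 was called higher in A, against 1.76% of all genes. HMGCS1 was called lower in B, where 1 of 8 is near the 7.24% over all genes. No other call was made. In RNA from whole cultures, fewer cells of a type and less RNA per cell cannot be told apart. The fitted difference of A from Nc was above 0 for 8 of 8 genes, and that of B from Nc was below 0 for 6 of 8. Over all genes tested, the median log2 fold changes were 0.0088 and -0.0020. IDI1 in A, at a log2 fold change of 0.0038, and SREBF2 in B, at -0.0078, lay close to no change. Their signs turned in other fits. Levels are given as FPKM, deposited by the authors. These are counts over gene length and a library constant of 0.936 to 1.07 times the library total. Fold changes come from edgeR's quasi-likelihood test on the counts, fitted over all 9 libraries, with p-values adjusted by Benjamini and Hochberg over the 13845 genes and a threshold of 0.05.

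**Figure D1:**
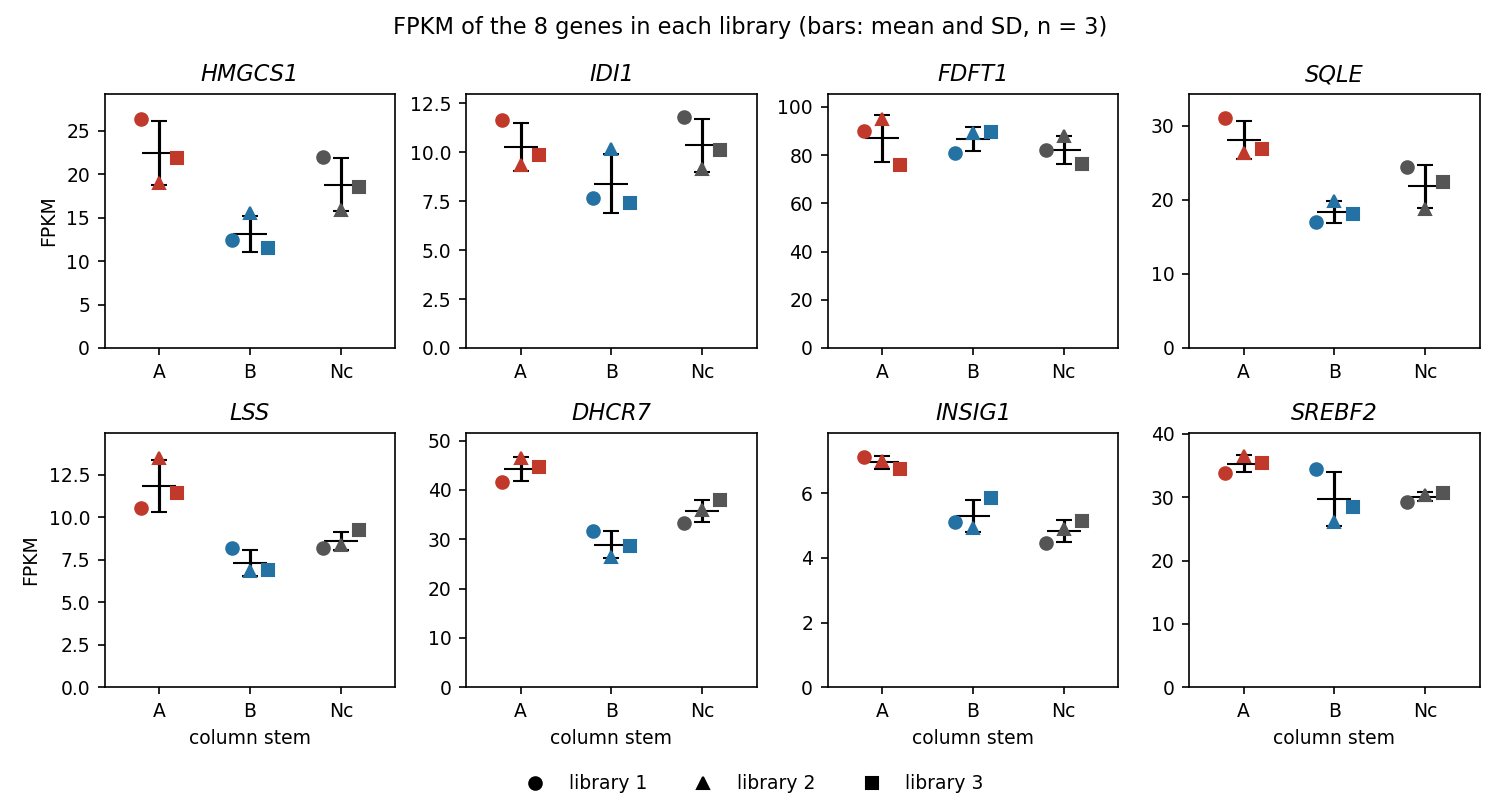
FPKM of each of the 8 genes (vertical axes from 0) in the libraries of A, B and Nc, with symbols for libraries 1, 2 and 3 and bars for mean and SD (n = 3). For HMGCS1, SQLE, LSS, DHCR7 and INSIG1, each library of A lies above each library of B, while FDFT1 and IDI1 overlap between all stems.

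HMGCS1 encodes the cytosolic HMG-CoA synthase, which joins acetyl-CoA and acetoacetyl-CoA near the head of the pathway. It had 26.4, 19.0 and 21.9 FPKM in A, 12.5, 15.5 and 11.5 FPKM in B and 22.0, 15.9 and 18.5 FPKM in Nc. The libraries of A lay above those of B, those of B lay below those of Nc, and those of A and Nc overlapped. HMGCS1 was 1.71 times higher in A than in B (95% interval 1.36 to 2.15, adjusted p = 0.00349, edgeR). It fell in B to 0.705 times its level in Nc (0.561 to 0.887, adjusted p = 0.0433). Of A against Nc the fold was 1.20 (0.958 to 1.51, adjusted p = 0.313), which did not pass. The call of B against Nc was lost without Nc1 (adjusted p = 0.138), Nc3 (0.0950), A3 (0.0584), B1 (0.125) or B3 (0.215). HMGCS1 lies on the minus strand of chromosome 5 at chr5:43289395-43313512, and an antisense gene there, AC114947.2, had at most 3 counts in a library.

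IDI1 encodes isopentenyl-diphosphate isomerase, which interconverts the isoprene units that farnesyl diphosphate is built from. It had 11.7, 9.32 and 9.83 FPKM in A, 7.65, 10.1 and 7.38 FPKM in B and 11.8, 9.12 and 10.1 FPKM in Nc. The stems overlapped in all 3 comparisons, and the library B2 lay among those of A and Nc while B1 and B3 lay below them. The log2 fold change was 0.29 for A against B (SE 0.15, adjusted p = 0.181), 0.0038 for A against Nc (SE 0.15, adjusted p = 0.992) and -0.29 for B against Nc (SE 0.15, adjusted p = 0.207). None passed, and the interval of A against B ran from 0.986 to 1.52 times. IDI1 lies at chr10:1039152-1049170 on the minus strand.

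FDFT1 encodes squalene synthase, which joins a pair of farnesyl diphosphates and so commits them to sterols. It had 90.0, 94.9 and 76.1 FPKM in A, 81.0, 89.4 and 89.6 FPKM in B and 82.0, 87.8 and 76.4 FPKM in Nc. The stems overlapped in all 3 comparisons, with A3 and Nc3 lowest. The fold was 1.01 for A against B (0.836 to 1.21), 1.07 for A against Nc (0.890 to 1.29) and 1.06 for B against Nc (0.885 to 1.28). The adjusted p-values from edgeR were 0.971, 0.666 and 0.684, and these intervals leave room for changes of up to 1.29 times.

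SQLE encodes squalene epoxidase, a rate-limiting enzyme of the sterol arm. It had 31.1, 26.3 and 26.8 FPKM in A, 17.0, 19.9 and 18.0 FPKM in B and 24.4, 18.7 and 22.3 FPKM in Nc. Each library of A lay above each library of B and of Nc, and B2 reached above Nc2. SQLE was 1.54 times higher in A than in B (1.27 to 1.86, adjusted p = 0.00415, edgeR). Against Nc the fold was 1.30 in A (1.07 to 1.57, adjusted p = 0.116) and 0.845 in B (0.699 to 1.02, adjusted p = 0.226), and neither passed.

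LSS encodes lanosterol synthase, which folds the epoxide made by SQLE into the first sterol. It had 10.5, 13.5 and 11.4 FPKM in A, 8.18, 6.82 and 6.92 FPKM in B and 8.21, 8.36 and 9.23 FPKM in Nc. The stems did not overlap in any comparison, although B1 and Nc1 lay next to each other. LSS was 1.62 times higher in A than in B (1.34 to 1.95, adjusted p = 0.00170, edgeR). Against Nc the fold was 1.39 in A (1.15 to 1.67, adjusted p = 0.0579) and 0.856 in B (0.710 to 1.03, adjusted p = 0.261). The first of these passed without A1 (adjusted p = 0.0245) and in none of the other 8 fits that left out a library. LSS lies at chr21:46188141-46228824 on the minus strand.

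DHCR7 encodes 7-dehydrocholesterol reductase, which makes cholesterol in the last step of the pathway; in skin its substrate is also the precursor of vitamin D. It had 41.6, 46.6 and 44.6 FPKM in A, 31.7, 26.4 and 28.6 FPKM in B and 33.4, 35.9 and 38.0 FPKM in Nc. A lay above Nc and Nc above B, with no overlap between any stems. DHCR7 was 1.53 times higher in A than in B (1.29 to 1.83, adjusted p = 0.00257, edgeR). Its fold was 1.25 in A against Nc (1.05 to 1.49, adjusted p = 0.138) and 0.815 in B against Nc (0.683 to 0.971, adjusted p = 0.110), and neither passed the adjustment. DHCR7 lies at chr11:71428193-71452868 on the minus strand, and the antisense gene AP002387.2, which overlaps it, had 195 to 319 counts per library, or 10.7% of the counts of DHCR7. No source used here says whether the authors counted by strand, and reads of this pair may not be told apart.

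INSIG1 is the gene of the sterol-sensing anchor of SCAP. It had 7.12, 6.99 and 6.74 FPKM in A, 5.11, 4.92 and 5.86 FPKM in B and 4.45, 4.91 and 5.13 FPKM in Nc. The libraries of A stood above all others, and those of B and Nc overlapped. INSIG1 rose 1.45 times in A against Nc (1.21 to 1.75, adjusted p = 0.0310, edgeR) and was 1.32 times higher in A than in B (1.09 to 1.58, adjusted p = 0.0383). Of B against Nc the fold was 1.11 (0.918 to 1.33, adjusted p = 0.482). The call of A against Nc held in 2 of the 9 fits that left out a library, those without A1 (adjusted p = 0.0431) and without B3 (0.0369), and ranged up to 0.149 in the rest. The call of A against B held in 1 of 9, without Nc1 (0.0234), and ranged up to 0.173 in the rest. INSIG1 lies at chr7:155297776-155310235 on the plus strand.

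SREBF2, the gene of the transcription factor itself, had 33.9, 36.6 and 35.4 FPKM in A, 34.5, 26.1 and 28.5 FPKM in B and 29.3, 30.4 and 30.6 FPKM in Nc. The libraries of A lay above those of Nc, while B1 lay among those of A and the other libraries of B lay below Nc. No comparison passed. The log2 fold change was 0.25 for A against B (SE 0.12, adjusted p = 0.174), 0.24 for A against Nc (SE 0.12, adjusted p = 0.257) and -0.0078 for B against Nc (SE 0.12, adjusted p = 0.978). SREBF2 lies at chr22:41833079-41907308 on the plus strand, and the microRNA gene MIR33A within it had 0 counts in all 9 libraries.

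In A against B, 5 of the 8 genes were called higher, against 9.25% of all 13845 genes, and 0 lower, against 8.79%. In A against Nc, 1 was called higher, against 1.76% of all genes, and 0 lower, against 0.953%. In B against Nc, 0 were called higher, against 6.12%, and 1 lower, against 7.24%. The median log2 fold change of the 8 genes was 0.51 in A against B, where that of all genes was 0.021. It was 0.29 in A against Nc, with 0.0088 over all genes, and -0.23 in B against Nc, with -0.0020 over all genes. Each library of A lay above each library of B for 5 of the 8 genes, which 16.9% of all genes did. Each library of A lay above each of Nc for 5, against 13.3% of all genes, and each library of B lay below each of Nc for 3, against 15.4%.

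**Figure D2:**
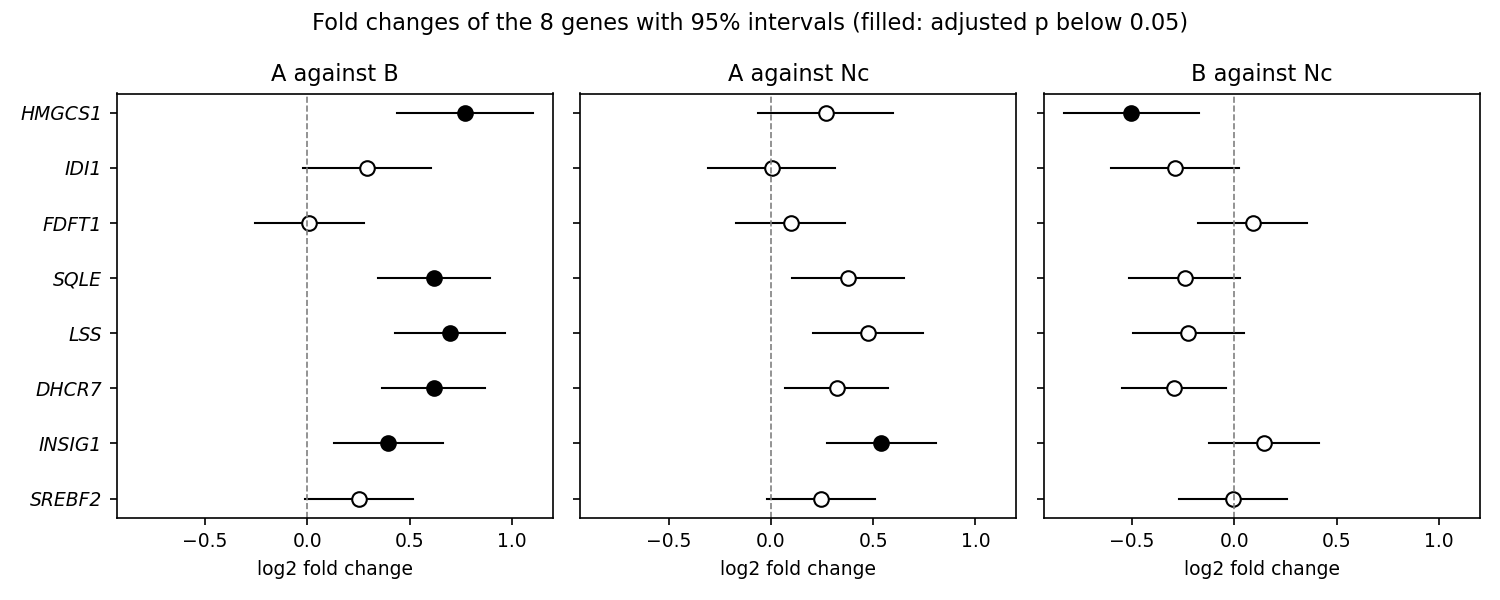
Log2 fold change (horizontal axis) of each gene in A against B, A against Nc and B against Nc, with 95% intervals from edgeR over 9 libraries and filled points for an adjusted p below 0.05. The filled points are HMGCS1, SQLE, LSS, DHCR7 and INSIG1 in A against B, INSIG1 in A against Nc and HMGCS1 in B against Nc.

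The calls of A against B for HMGCS1, SQLE, LSS and DHCR7 held in 9 of 9 fits that left out a library. The calls against Nc moved with the fit. Libraries of A and Nc that share a number deviated together. The pairing was read from these same data, and a block on the number was chosen after seeing them. Calls from this block are therefore no separate support for a rise. The block also leaves fewer degrees of freedom to estimate the spread. With it in a fit of these 6 libraries, 6 of the 8 genes were called higher in A, against 16.5% of all genes. The exceptions were IDI1 and FDFT1. There LSS had an adjusted p of 0.000503 in edgeR, SQLE 0.000817, INSIG1 0.00107, DHCR7 0.00249, HMGCS1 0.00635 and SREBF2 0.0138. With the block over all 9 libraries, 0 of the 8 and 244 of all genes passed in A against Nc, and the adjusted p of INSIG1 was 0.0600. A split of all called genes in A against Nc into higher and lower ones was 244 and 132 in the fit of 9 libraries and 2179 and 2422 with the block in 6. Without the 5 libraries rich in HBB, none of the 8 genes passed in any comparison, and the log2 fold changes in A against B were 0.64 for HMGCS1, 0.54 for SQLE, 0.60 for LSS, 0.61 for DHCR7 and 0.42 for INSIG1. That fit had 1 library of A, 2 of B and 1 of Nc, so its spread rests on B alone.

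Within the stems, 6 of the 8 genes fell into sets that went up and down together. In FPKM, HMGCS1, SQLE and IDI1 were each highest in A1 among the libraries of A, in B2 among those of B and in Nc1 among those of Nc. LSS, DHCR7 and SREBF2 were each highest in A2, B1 and Nc3 and lowest in A1, B2 and Nc1 in FPKM, while in log2 CPM LSS was lowest in B3 and SREBF2 highest in Nc2 by small margins. Over the 9 libraries, deviations from the stem mean in log2 CPM had a Pearson r of 0.97 between HMGCS1 and IDI1, 0.90 between HMGCS1 and SQLE and 0.89 between SQLE and IDI1. Within the other set r was 0.89 for LSS with DHCR7, 0.89 for DHCR7 with SREBF2 and 0.77 for LSS with SREBF2. Between the sets r ran from -0.73, for IDI1 with DHCR7, to -0.48, for SQLE with LSS. INSIG1 had an r of -0.62 with HMGCS1, -0.60 with IDI1 and -0.36 with SQLE, and of 0.034 to 0.31 with the other set. FDFT1 had an r of -0.28 to 0.18 with the 7 others. The genes of a set share their libraries and their library scaling, so these are descriptions. The deviation of IDI1 in B2 was 0.30, about the size of its log2 fold change of 0.29 in A against B.

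The sets also differ in base composition. The longest transcript has a GC content of 40.2% in HMGCS1, 41.1% in IDI1 and 46.5% in SQLE, and of 57.1% in SREBF2, 58.3% in LSS and 58.3% in DHCR7. INSIG1, at 46.0%, and FDFT1, at 48.6%, belong to neither set. Over 9727 genes, genes in the fifth poorest in GC deviated by a median of 0.16 in A1, 0.19 in B2 and 0.22 in Nc1, and those in the fifth richest in GC by -0.20, -0.15 and -0.19. In A2 the medians were -0.14 and 0.11, in B1 -0.038 and 0.17 and in Nc3 -0.063 and 0.080. In Nc2 they were further apart than in Nc3, at -0.15 and 0.11, although LSS and DHCR7 were highest in Nc3. In A3 they were -0.016 and 0.088, and in B3 both were below 0, at -0.15 and -0.026.

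**Figure D3:**
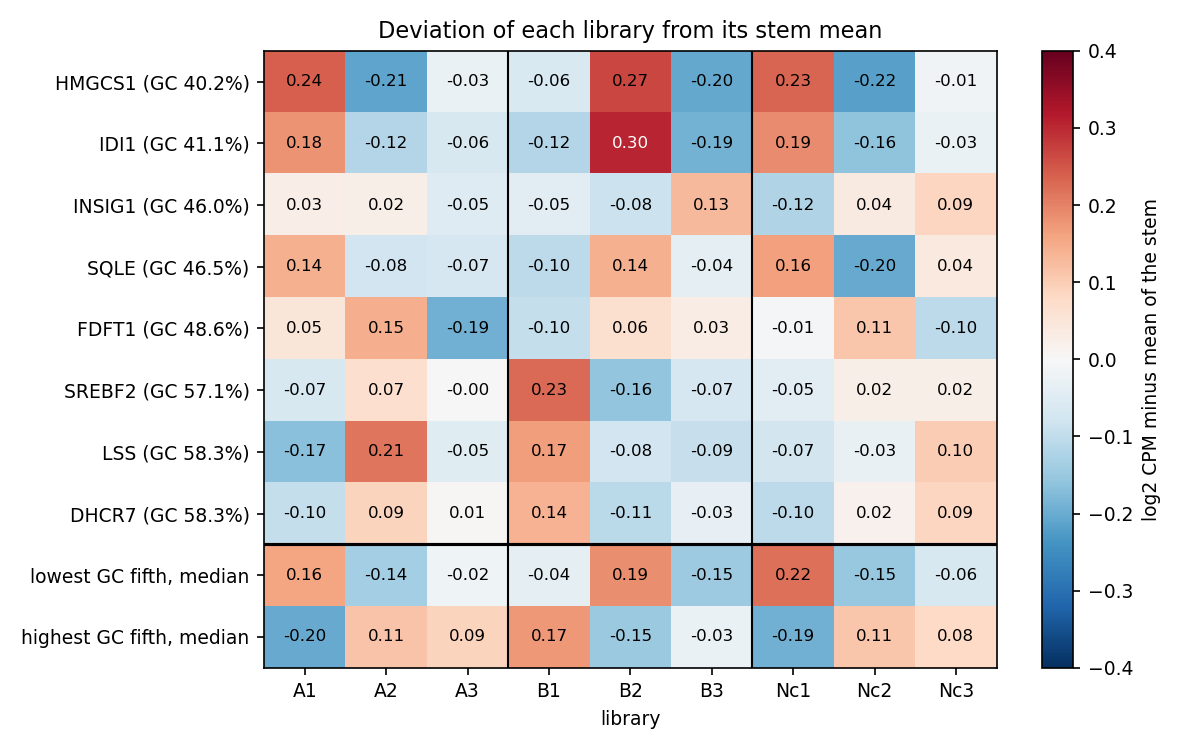
Deviation of each library from its stem mean in log2 CPM (colour and printed value) for the 8 genes, ordered by the GC content of their longest transcript, with the medians of the fifth of all genes lowest and highest in GC content below. HMGCS1, IDI1 and SQLE are above 0 in A1, B2 and Nc1, where SREBF2, LSS and DHCR7 are below 0.

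The trend of each library on GC content and transcript length was then taken out, a step chosen after seeing the data. This trend was fitted to deviations from the mean of all libraries in the fit, and not from the stem mean. Differences between stems that follow GC content or length were therefore taken out too. With this correction the differences moved between the sets. In A against Nc, the genes called higher were then HMGCS1, SQLE and INSIG1, against 2.37% of all genes, with log2 fold changes of 0.48, 0.40 and 0.57. Those of LSS, DHCR7 and SREBF2 were 0.25, 0.094 and 0.048. The split of all called genes became 328 higher and 285 lower. With the block in 6 libraries as well, HMGCS1, SQLE, IDI1, LSS and INSIG1 were called higher, against 9.28% of all genes. In B against Nc, HMGCS1, SQLE, LSS and DHCR7 were called lower, with log2 fold changes of -0.28, -0.27, -0.25 and -0.35, against 10.8% of all genes. In A against B, IDI1 joined the other 5 at 0.29, against 13.2% of all genes called higher.

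The order of the 8 levels was similar in all stems. FDFT1 was highest, at 87.0 ± 9.74 FPKM in A, 86.7 ± 4.90 in B and 82.1 ± 5.71 in Nc (SD, n = 3), and INSIG1 lowest, at 6.95 ± 0.196, 5.30 ± 0.497 and 4.83 ± 0.347. DHCR7 came next after FDFT1 in A, at 44.2 ± 2.49 FPKM, and in Nc, at 35.8 ± 2.30, in each case above SREBF2 without overlap. In B it did not differ from SREBF2 beyond the spread, at 28.9 ± 2.68 against 29.7 ± 4.32 FPKM. SQLE and HMGCS1 followed in that order in all stems, and their libraries overlapped in A and Nc but not in B. IDI1 and LSS overlapped in all stems.

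Ratios within a library show how the transcripts stood to each other. The ratio of HMGCS1 to FDFT1 in FPKM was 0.261 ± 0.0522 in A, 0.152 ± 0.0228 in B and 0.231 ± 0.0447 in Nc (SD, n = 3). That of DHCR7 to FDFT1 was 0.513 ± 0.0646 in A, 0.335 ± 0.0502 in B and 0.438 ± 0.0516 in Nc. For both ratios each library of A lay above each library of B. INSIG1 had 0.197 ± 0.0111 of the FPKM of SREBF2 in A, 0.181 ± 0.0294 in B and 0.160 ± 0.00783 in Nc, and each library of A lay above each of Nc. Such ratios show unequal change and not that a gene stayed the same.

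The whole pathway from acetyl-CoA to cholesterol was covered by 21 enzyme genes, 6 of them among the 8. Of the 15 others, 4 were called higher and 0 lower in A against B, 1 higher and 0 lower in A against Nc, and 0 higher and 1 lower in B against Nc. Of all genes tested, 9.25% were called higher in A against B, 1.76% higher in A against Nc and 7.24% lower in B against Nc, so that 1 of 15 is near the last of these. The median log2 fold changes of the 15 were 0.26, 0.19 and -0.082, against 0.021, 0.0088 and -0.0020 over all genes. In the mevalonate arm of 8 genes, HMGCS1 and IDI1 included, 4 were called higher and 0 lower in A against B, 1 higher and 0 lower in A against Nc, and 0 higher and 2 lower in B against Nc. MVK, which encodes mevalonate kinase, had 8.48 ± 1.19 FPKM in A, 5.12 ± 0.402 in B and 5.97 ± 0.709 in Nc (SD, n = 3). It was called higher in A than in B (log2 0.73, adjusted p = 0.00181, edgeR) and rose in A against Nc (log2 0.52, adjusted p = 0.0494). MVD, which encodes mevalonate diphosphate decarboxylase, had 15.7 ± 1.56 FPKM in A, 9.24 ± 1.61 in B and 10.9 ± 1.13 in Nc, and was called higher in A than in B (log2 0.77, adjusted p = 0.00175).

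In the squalene and sterol arm of 13 genes, 4 were called higher and 0 lower in A against B, against 9.25% and 8.79% of all genes. Against Nc, 0 passed in either stem. Of all genes, 1.76% were called higher and 0.953% lower in A against Nc, and 6.12% and 7.24% in B against Nc. SQLE, LSS and DHCR7, given above, were among the 4. For CYP51A1, the lanosterol demethylase, the log2 fold changes were 0.13 in A and -0.41 in B against Nc, and SC5D, a desaturase, had -0.29 and 0.12, and neither gene passed in any comparison.

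**Figure D4:**
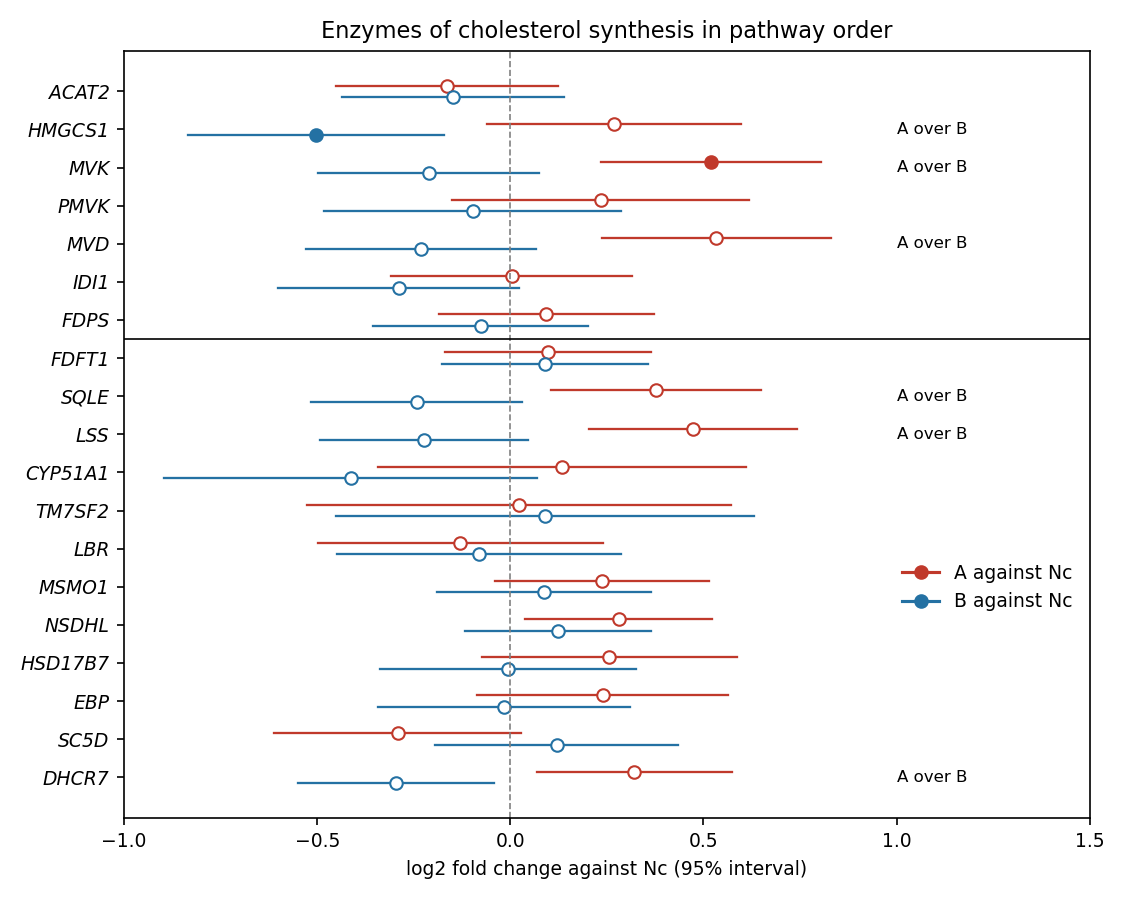
Log2 fold change against Nc (horizontal axis) with 95% intervals for enzyme genes in pathway order, in red for A and blue for B, with filled points for an adjusted p below 0.05 and the words A over B beside genes called higher in A than in B. A line parts the mevalonate arm, above, from the squalene and sterol arm, below, and the filled points are MVK in A and HMGCS1 in B.

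Among the 7 genes of SREBP processing, which include INSIG1 and SREBF2, 2 were called higher and 1 lower in A against B, where 9.25% and 8.79% of all genes were. There was 1 called higher in A against Nc, against 1.76% of all genes. In B against Nc there were 0, where 6.12% of all genes were called higher and 7.24% lower. INSIG1 is 1 of the 2 and the call against Nc. SCAP, whose product carries SREBP2, had 9.63 ± 0.565 FPKM in A, 6.77 ± 0.629 in B and 8.48 ± 0.687 in Nc (SD, n = 3) and was called higher in A than in B (log2 0.51, adjusted p = 0.00848, edgeR). INSIG2, a second anchor of SCAP, went the other way, with 4.28 ± 0.679 FPKM in A, 6.25 ± 0.576 in B and 5.07 ± 0.488 in Nc (log2 -0.54 in A against B, adjusted p = 0.0169). SREBF1, the gene of the sister factor, and MBTPS1, which encodes the protease that cuts SREBPs, had log2 fold changes of -0.020 and -0.15 in A against B, and neither passed.

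Of 9 other targets of SREBP2 and genes of sterol uptake, 2 were called higher and 1 lower in A against B, 2 higher and 0 lower in A against Nc, and 0 higher and 1 lower in B against Nc. The shares over all genes were 9.25% and 8.79% in A against B, 1.76% higher in A against Nc and 7.24% lower in B against Nc. NPC1, which exports cholesterol from lysosomes, rose in A, with 8.49 ± 0.641 FPKM in A, 7.36 ± 0.387 in B and 5.97 ± 0.522 in Nc (log2 0.52 in A against Nc, adjusted p = 0.0214, edgeR). MYLIP, which encodes a ubiquitin ligase that limits sterol uptake, was lower in A than in B, with 0.732 ± 0.0848 FPKM in A, 1.30 ± 0.110 in B and 1.01 ± 0.328 in Nc (log2 -0.84, adjusted p = 0.0307). STARD4 and TMEM97, targets of SREBP2 that move sterols, had log2 fold changes of 0.051 and 0.13 in A against B, and neither passed.

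Outside all these lists, the genes whose pattern over the 9 libraries was most like the mean of the 8 were taken by Pearson correlation of log2 CPM among 9674 genes. Of the 10 taken, those reported are SOX9, GLIPR1, PTGS1, MPRIP, PHLDA1, SULF2, VEGFC, KIRREL1 and DNMBP, with r between 0.971 and 0.987. SOX9, a transcription factor of hair follicle cells, had 12.4 ± 1.24 FPKM in A, 5.90 ± 0.249 in B and 7.07 ± 0.853 in Nc (SD, n = 3). PHLDA1 had 33.7 ± 1.94 FPKM in A, 15.8 ± 0.628 in B and 20.4 ± 1.05 in Nc. VEGFC, a growth factor of lymph vessels, had 10.3 ± 0.782 FPKM in A, 5.80 ± 0.275 in B and 7.20 ± 0.426 in Nc. These points share their libraries and stems, and only 2 of the 10 were also among the 10 highest by Spearman's rho.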

How the data were processed

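RNA of HaCaT cells was sequenced in read pairs of 150 bases, per the labels' protocols. FastQC, HISAT2 and StringTie were used with GRCh38, per the submitters' processing notes, which give no versions. The annotation release and strand setting are not stated. Counts per gene are whole numbers as deposited by the authors and were not normalized by them. The FPKM were made by the authors and equal the count over annotated length and a library constant of 0.936 to 1.07 times the total. Library totals of 15337296 to 18028419 counts limit the precision of low genes. The number of value columns not used was 0. That columns A and B are the treated samples is a reading, since 9 columns face 9 samples.

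The main test was edgeR 4.0.16 (TMM, filterByExpr, quasi-likelihood) in R 4.3.3 on all 9 libraries, which share the estimate of the spread. The alternatives used DESeq2 1.42.0, limma 3.58.1 on log2(FPKM + 1), library totals, other filters, a replicate block and left-out libraries. The GC and length correction subtracts a spline with 4 degrees of freedom per term and library, from longest transcripts of GENCODE, for 13836 of 13845 genes. The spline is fitted to deviations from the mean of all libraries in the fit, so it also takes out trends that differ between stems. The correction was chosen after seeing the data, as were the block in A and Nc alone and the fit without libraries of over 500 HBB counts. Other steps ran in Python 3.11.15 with pandas 2.3.3. Log2 CPM carry a prior count of 2.

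The 8 genes, the lists and the tests were chosen with earlier results of these data known. Named genes are the 8, list members called in any comparison, those needed to describe the order of the pathway, and the 10 most alike genes among those averaging 100 counts or more. Some genes that this rule names are not reported here, while counts cover whole lists. Pairs of libraries within a stem differed beyond counting error in 2640 to 7707 genes (chi-square test), so none was treated as the same library deposited again. That test covers counting error only and does not show that libraries came from separate cultures.

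Pairing by number was checked on deviations from stem means. Correlations were 0.470, 0.257 and 0.225 for A with Nc, from -0.331 to -0.263 for B with Nc and from -0.236 to -0.195 for A with B. Since all 3 of A with Nc are over 0.1, the numbers were taken to pair those libraries, from the data and not from the labels. The deviations within a stem are tied by the stem mean, so these 3 values are not independent. Genes poor in GC deviated by a median of 0.16 in A1 and 0.22 in Nc1, and by 0.19 in B2 against -0.038 in B1. Whether the numbers mark a batch, and the part of GC trends in these correlations, was not tested. On simulated counts of A against Nc, edgeR recovered 29 of 200 genes changed 1.5 times, with 2 false calls among 13610 genes. It recovered 158 of 200 changed 2 times, with 16 false calls among 13640. The simulated counts were drawn independently, without the GC trends, the deviations shared by number or the blood transcripts of these libraries. Their numbers of false calls therefore need not hold for the real data.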

Additional observations from a re-analysis of the deposited data

Results flagged for a closer look

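The differences of A from Nc and of B from Nc, which share the control libraries, were themselves compared by testing A against B. For 5 genes they differed, with log2 fold changes of 0.77 for HMGCS1, 0.70 for LSS, 0.62 for SQLE, 0.62 for DHCR7 and 0.40 for INSIG1 (adjusted p from 0.00170 to 0.0383, edgeR). Of all genes tested, 9.25% were called higher in A than in B. Each library of A was above each library of B for these 5, which 16.9% of all genes also showed. The 5 were picked by a test on the same libraries, so this is no separate support. HBB-rich libraries are 2 of A, 1 of B and 2 of Nc, and the part of blood transcripts in these differences was not tested.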

How the results depend on the processing

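HMGCS1, SQLE, LSS and DHCR7 were called higher in A than in B in 8 of the 9 other settings and in 9 of 9 fits that left out a library. The exception left out the 5 libraries rich in HBB, with 0 of the 8 genes and 460 of all genes called. INSIG1 kept that call in 4 of 9 settings and 1 of 9 fits. Leaving out a library in turn gave 1160 to 3197 genes and 4 to 5 of the 8 in A against B, 101 to 910 genes and 0 to 2 of the 8 in A against Nc, and 489 to 2088 genes and 0 to 1 of the 8 in B against Nc. Counts moved by over 1.5 times in A against B without A2 (1544), A3 (1160), B2 (1371) or B3 (1195), in A against Nc without A1 (910), A2 (101), A3 (114), Nc1 (209) or Nc3 (124), and in B against Nc without B3 (489), Nc1 (1139) or Nc3 (868). In the fit of all 9, 2498, 376 and 1850 genes were called.

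In A against Nc, genes called and those among the 8 were 794 and 2 with DESeq2, 992 and 0 without a filter, 613 and 3 with the GC and length correction, and 30 and 0 without the HBB-rich libraries. Of the 8, 0 were called with library totals (267 of all genes), with a minimum of 10 counts (344) or with the 2 groups alone (272). Limma called 223 genes and 1 of the 8, INSIG1 (adjusted p = 0.0321, limma). In B against Nc, the correction gave 3312 genes and 4 of the 8, and leaving out the HBB-rich libraries 57 and 0. Of the 8, 0 passed there with library totals (1245 of all genes), a minimum of 10 counts (1662) or limma (1296). In A against B the correction gave 4186 genes.

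Pairing by number changed the calls. The replicate block over 9 libraries left 244 genes and 0 of the 8 in A against Nc. In B against Nc it left 1527 genes and 0 of the 8. The block in A and Nc alone, chosen after seeing the data, gave 4601 genes and 6 of the 8. With the correction as well, it gave 2308 and 5. In A against B, where the numbers do not pair, the block took away the call of INSIG1 (adjusted p = 0.0606, edgeR).

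Signs turned for 4 genes, with log2 fold changes of at most 0.14 in the fit of all 9 libraries. IDI1 in A against Nc became -0.0105 with DESeq2, -0.0451 with library totals, -0.0531 without a filter, -0.0480 with a minimum of 10 counts, -0.0146 with the 2 groups alone, -0.00831 with limma, -0.0162 with the block in A and Nc and -0.0300 without the HBB-rich libraries, and ran from -0.0916 to 0.106 with a library left out. SREBF2 in B against Nc became 0.0222 with library totals and 0.000788 without the HBB-rich libraries, and ran from -0.112 to 0.0792. In B against Nc, FDFT1 became -0.00105 with the correction and INSIG1 -0.0153 without the HBB-rich libraries. FDFT1 in A against B became -0.00652 with DESeq2, -0.0760 with library totals, -0.0531 with a minimum of 10 counts and -0.168 without the HBB-rich libraries, and ran from -0.0774 to 0.104. The causes were not tested. At this depth the intervals of the 8 genes leave room for changes of about the size seen, so a missed threshold does not show that levels were alike.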

Other observations

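Calls among 7 genes of fatty acid synthesis, targets of SREBP1, went in both directions. In A against B 2 were called higher, where 9.25% of all genes were, and 0 lower. In A against Nc 1 was called higher, against 1.76% of all genes, and 0 lower. In B against Nc 1 was called higher and 2 lower, against 6.12% and 7.24% of all genes. FASN, the fatty acid synthase, had 31.9 ± 2.59 FPKM in A, 15.6 ± 1.82 in B and 23.0 ± 1.20 in Nc (SD, n = 3). It was 2.04 times higher in A than in B (adjusted p = 7.37e-05, edgeR), rose in A against Nc (log2 0.49, adjusted p = 0.0491) and fell in B against Nc (log2 -0.55, adjusted p = 0.0119). ACLY, which makes cytosolic acetyl-CoA from citrate, was called higher in A than in B, with 54.0 ± 1.33 FPKM in A, 40.4 ± 2.75 in B and 43.2 ± 3.73 in Nc (log2 0.42, adjusted p = 0.0203). ACSS2, which makes it from acetate, rose in B, with 9.41 ± 0.142 FPKM in B and 6.85 ± 0.767 in Nc (log2 0.47, adjusted p = 0.0171). Each library of A, at 7.48 ± 0.334 FPKM, lay below each of B for ACSS2, but A against B did not pass (adjusted p = 0.0611, edgeR). ELOVL6, an elongase, fell in B, with 2.53 ± 0.175 FPKM in B and 4.36 ± 0.803 in Nc (log2 -0.77, adjusted p = 0.00713).

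Of 9 genes of the isoprenoid branches that leave the pathway before squalene, 0 passed against Nc in either stem. Of all genes, 1.76% were called higher and 0.953% lower in A against Nc, and 6.12% and 7.24% in B against Nc. Of these 9 genes, 1 was called lower in A than in B, where 8.79% of all genes were. That was FNTB, a subunit of farnesyltransferase, with 2.43 ± 0.280 FPKM in A, 3.35 ± 0.389 in B and 2.54 ± 0.0846 in Nc (SD, n = 3; log2 -0.46, adjusted p = 0.0498, edgeR). Of 6 genes of the LXR factors and of sterol storage or efflux, 3 passed the filter on low counts, and none of these was called in any comparison by edgeR. ABCA1, a cholesterol exporter, had 5 to 8 counts in A, 4 to 11 in B and 5 to 9 in Nc, and was not tested. SOAT1, which esterifies cholesterol for storage, had 7.35 ± 1.16 FPKM in A, 6.36 ± 1.60 in B and 8.35 ± 1.82 in Nc.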
